A study of Mus musculus with 10 samples.

Results

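The transcripts described here are those of MHC class I and its peptide loading pathway, a set of 10 genes named by symbol. The set holds the heavy chains H2-K1, H2-D1 and H2-T23, the light chain B2m, the transporter and loading genes Tap1, Tap2 and Tapbp, the immunoproteasome subunits Psmb8 and Psmb9, and the transactivator Nlrc5. The 10 are among 48825 genes listed in the deposited table, and all 10 were among the 15716 genes tested (those reaching 10 normalized counts in 2 or more libraries). RNA-seq libraries came from lymphocytes of mouse melanomas. All mice, controls included, carried BrafCA and Tyr::CreER, in which a tamoxifen-inducible Cre driven by the tyrosinase promoter of melanocytes activates mutant Braf, and tumours were induced locally.

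From 30 days after tumour induction, mice received 1 of 4 treatments for 30 days or until a tumour endpoint. The 3 control libraries (1, 2 and 3) came from mice on normal chow. The 2 CSF1Ri libraries (labelled here 1 and 6, the former with no number in its title) came from mice fed PLX6134, an inhibitor of the colony-stimulating factor 1 receptor on which macrophages depend, at 600 mg per kg of chow. The 3 CD40 libraries (1, 2 and 3) came from mice injected intraperitoneally with FGK4.5, an agonistic antibody against CD40, at 10 mg/kg. CD40 is a receptor of antigen-presenting cells that T cells engage through CD40 ligand. The 2 libraries of the combination (1 and 3) came from mice given both, and the labels mention a PBS vehicle for the antibody without saying which libraries received it. Each library pooled at least 3 tumours, and the labels say no more about how pools were formed, so a p-value here reflects variation from pool to pool. The labels give no age beyond age matching.

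The label for tissue reads tumor associated macrophages and the label for genotype reads wild type, while the titles name T cells and the protocol describes no step that selects T cells. Over the 10 libraries Cd3e, a chain of the T cell receptor complex, ranged from 10586 to 23096 normalized counts. Csf1r, a macrophage receptor, ranged from 30 to 235, and Adgre1 was at 0 in 4 libraries. The summed level of 9 T cell markers ranged from 99798 to 170761, and that of 10 macrophage and monocyte markers from 2205 to 5832. The libraries are called T cell libraries here on the basis of their titles and these levels. Transcripts of other cell types were present too. Cd74 and H2-Aa, genes of MHC class II presentation, ranged from 6582 to 21399 and from 1135 to 8727. The B and plasma cell marker Ighm ranged from 3836 to 6632. The purity of the libraries was not tested. Normalized totals ranged from 11538244 to 14024851 counts. CD40 library 3 stood apart on the first principal component, with the highest level of the nuclear transcript Malat1 (95260, against 14056 to 59286 elsewhere), and CD40 library 2 and combination library 3 lay at opposite ends of the second. Y-linked transcripts summed to 1569 to 3072 in control 1, CD40 2 and CD40 3 and to at most 1 in the other 7 libraries.

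MHC class I molecules display peptides cut from proteins inside the cell to CD8+ T cells and to natural killer cells. The proteasome cuts the peptides, and in lymphocytes and in cells exposed to interferon gamma it carries immunoproteasome subunits, among them Psmb8 and Psmb9. The Tap1 and Tap2 heterodimer pumps the peptides into the endoplasmic reticulum, where tapasin (Tapbp) holds an empty heavy chain with its light chain beta-2 microglobulin (B2m) beside the transporter until a peptide fits. Nlrc5 is a transactivator that is recruited to the promoters of these genes, and T cells are known to have high levels of it and of class I itself.

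Promoter sequence was compared because class I promoters share a known block of elements: an NF-kB element, an interferon-stimulated element, and an SXY module whose X2 and Y boxes carry the letters TGACG and ATTGG. RefSeq windows (GRCm38.p6, 250 bases before to 50 bases after a start site) were found for 8 of the 10 members, the exceptions being Tap2 and Nlrc5. The stretches below are given 5′ to 3′ on the strand of the gene, with matches to the searched motifs in capitals on either strand. The capitals in the first 4 mark the X2 letters, the Y box, the NF-kB motif and the interferon-stimulated element, searched as GAAA repeated after 2 bases of any kind or, in a shorter form, as GAA so followed by GAAA. In Tap1 they mark the X2 and Y box letters alone. H2-K1 lies at chr17:34000329-34000478 on the minus strand, H2-D1 at chr17:35262903-35263052 on the plus strand, B2m at chr2:122147519-122147668 on the plus strand and H2-T23 at chr17:36032702-36032851 on the minus strand. They are shown because they hold the heavy and light chains whose levels are compared below.
H2-K1: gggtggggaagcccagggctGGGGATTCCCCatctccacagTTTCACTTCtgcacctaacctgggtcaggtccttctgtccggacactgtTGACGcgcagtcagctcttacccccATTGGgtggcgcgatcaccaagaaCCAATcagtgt
H2-D1: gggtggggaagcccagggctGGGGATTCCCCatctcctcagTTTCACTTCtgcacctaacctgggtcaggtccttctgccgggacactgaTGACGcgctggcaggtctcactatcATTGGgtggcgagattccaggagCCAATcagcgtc
B2m: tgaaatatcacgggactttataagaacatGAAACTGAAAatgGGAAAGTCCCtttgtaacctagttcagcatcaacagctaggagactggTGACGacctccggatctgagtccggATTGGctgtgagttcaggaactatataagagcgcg
H2-T23: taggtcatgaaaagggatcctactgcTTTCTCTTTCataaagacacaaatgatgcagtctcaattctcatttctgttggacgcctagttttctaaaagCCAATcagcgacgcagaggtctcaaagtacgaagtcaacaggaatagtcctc

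The H2-K1 and H2-D1 stretches were identical at 121 of 150 positions (80.7%), and both carried the NF-kB motif, the shorter interferon-stimulated element, TGACG and ATTGG in the same order. B2m carried the same kinds of element with the interferon-stimulated one upstream of the NF-kB motif. In these 3 genes TGACG and ATTGG were separated by the same distance, 20 bases, and the letters between them differed. The pattern TGACGNNNNNNNNNNNNNNNNNNNNATTGG, whose spacing was read from these windows, was found in 27 of 27025 genes with a window (0.0999%), of which 3 were members and another was the class I-like gene H2-M3. H2-T23 carried an interferon-stimulated element and the ATTGG box, without TGACG in its window.

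Searched separately on both strands, TGACG was present in 5 of the 8 member windows (H2-K1, H2-D1, B2m, Tap1 and Psmb9) against 6228 of 27025 genes with a window. ATTGG was present in 7 of 8, all but Psmb8, against 41.1%. The windows of Tap1 and Psmb9 overlap, and their matches are the same sites, counted for each gene. These are chr17:34187470-34187474 for TGACG and chr17:34187334-34187338 for ATTGG. The 10-base interferon-stimulated element was in H2-T23 and B2m (3.99% of genes), the shorter form in H2-K1 and H2-D1 (8.68%), and the NF-kB motif in H2-K1, H2-D1 and B2m (9.55%). Psmb8 alone among the members held the gamma-activated site TTCNNNGAA (9.55% of genes), and Tapbp held ATTGG as its only match. A match describes letters in a window and not a bound site.

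Tap1 and Psmb9 are divergent neighbours. Their RefSeq start sites lie 226 bases apart and their windows share 275 bases, so most of the sequence below, chr17:34187306-34187555 on the plus strand, lies before the start of both genes. It is shown because the levels of these 2 genes are compared below.
Tap1: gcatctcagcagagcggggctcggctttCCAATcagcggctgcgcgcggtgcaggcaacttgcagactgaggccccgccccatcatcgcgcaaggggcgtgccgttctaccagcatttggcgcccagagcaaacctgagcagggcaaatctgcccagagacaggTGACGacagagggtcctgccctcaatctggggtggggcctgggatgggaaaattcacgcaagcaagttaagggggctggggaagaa

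**Figure D1:**
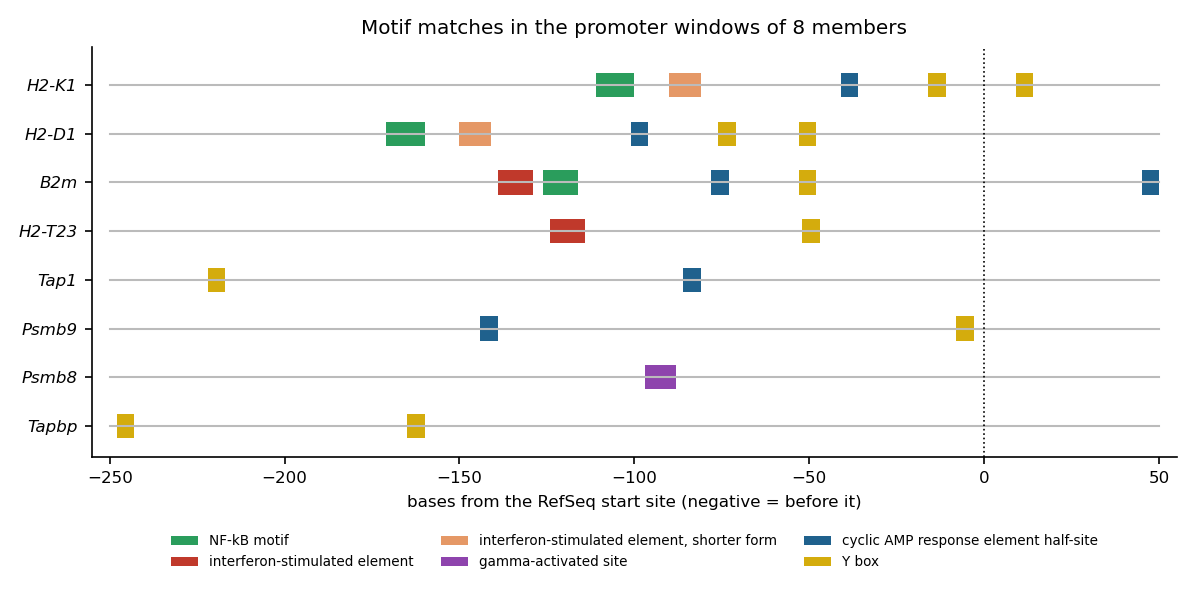
Position of each motif match (coloured blocks) in bases from the RefSeq start site (dotted line) for the 8 members with a promoter window, 1 grey line per gene. For H2-K1, which has 2 windows, 1 is drawn. H2-K1 and H2-D1 show the same order of blocks, B2m has the interferon-stimulated element first, and Psmb8 alone has a gamma-activated site.

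All but B2m and Nlrc5 lie in the MHC region of chromosome 17 (GRCm38, GENCODE vM21). Tapbp (33915899-33929292, plus strand) and H2-K1 (33996017-34000347, minus strand) lie at one end. Psmb9 (34181987-34187764, minus), Tap1 (34187553-34197225, plus), Psmb8 (34197721-34201454, plus) and Tap2 (34203527-34216321, plus) follow one another directly. H2-D1 (35262730-35267499, plus) and H2-T23 (36029773-36032855, minus) lie further on, B2m is on chromosome 2 (122147686-122153083, plus) and Nlrc5 on chromosome 8 (94434356-94527272, plus). The libraries carry no strand information, so reads from overlapping exons cannot be assigned to a gene with certainty. Tap1 and Psmb9 share 212 exonic bases (3.87% and 5.79% of their exons). Tapbp shares 24.9% of its exonic bases with Gm19412 (108 to 307 normalized counts), Psmb8 14.7% and Tap2 4.36% with Gm20496 (3367 to 9030), and Tap2 a further 14.1% with Gm15821 (98 to 435). Reads from near-identical class I copies are uncertain in the same way. Of the 75-base windows along the transcript, 13.1% of those of H2-T23, 6.9% of H2-D1 and 1.55% of H2-K1 also occur in another gene of the reference, against 0.992% for Tapbp and 0 for the other 6 members. The H2 haplotype of the mice is not given in the sources used here, and class I genes are polymorphic between haplotypes.

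Per kilobase of exon, the light chain was the most abundant member. B2m averaged 106869 normalized counts per kb over the 10 libraries, rank 3 of 22146 genes ranked, followed by H2-D1 at 22854 (rank 25) and H2-K1 at 10176 (rank 87). The immunoproteasome subunit Psmb8 (3269, rank 287) and the non-classical heavy chain H2-T23 (3153, rank 296) came next, then Tapbp (1303), Psmb9 (964), Tap1 (420), Tap2 (209) and Nlrc5 (141, rank 3848). Across libraries the ranges of B2m, H2-D1 and H2-K1 did not overlap with each other or with that of Psmb8. Those of Psmb8 and H2-T23, of Tapbp and Psmb9, of Tap1 and Tap2, and of Tap2 and Nlrc5 did. The transporter and loading genes were therefore at far lower levels per length than the classical chains they serve. Together the 10 members took between 1.36% (control 3) and 2.13% (CD40 2) of all normalized counts in a library.

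**Figure D2:**
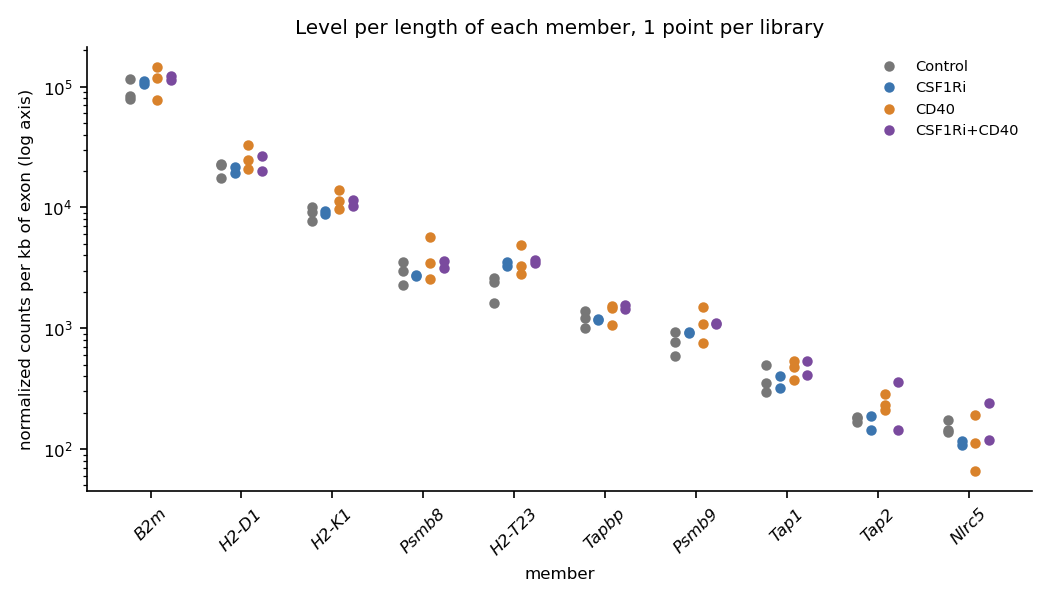
Normalized counts per kilobase of exon on a log axis for each member, 1 point per library and coloured by group, with members ordered by their mean. B2m lies near 106869 and Nlrc5 near 141, and neighbours such as Psmb8 and H2-T23 overlap.

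Against control, members read higher rather than lower after CD40 agonist alone or together with CSF1Ri, but for none of the 10 did a difference pass the test. limma on log2(normalized count + 1), with Benjamini-Hochberg adjustment over all genes and a threshold of 0.05, called 0 of 10 members in each of 8 comparisons. These were each treatment over control, the combination over each treatment alone, the interaction, and each treatment averaged over the levels of the other. The same test called 1 of 15716 genes (0.00636%) for CSF1Ri over control, 1 gene (0.00636%) for CD40 over control and 0 genes (0.00%) in each of the other 6. At an unadjusted p under 0.05 the members called were H2-T23 in the 3 comparisons with control (4.08% of all genes for CSF1Ri, 6.39% for CD40, 5.40% for the combination) and H2-K1 for CD40 averaged over CSF1Ri levels (4.67%). In the other 4 comparisons no member was called at that level, against 3.58% of genes for the combination over CSF1Ri, 4.96% over CD40, 4.17% for the interaction and 4.60% for CSF1Ri averaged over CD40 levels. In bulk libraries such as these, a change in the share of cells and a change in RNA per cell cannot be told apart.

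The direction was uneven between treatments. For CSF1Ri over control 4 of 10 members had a positive log2 fold change (51.1% of all genes did), with a median of -0.02 against 0.016 for all genes tested. For CD40 over control it was 9 of 10 (49.0% of genes) with a median of 0.33 against -0.01, Nlrc5 being the exception. For the combination over control it was 10 of 10 (49.3%), with a median of 0.34 against -0.002, and over CSF1Ri alone it was 10 of 10 (48.1%) with a median of 0.29. Over CD40 alone it was 6 of 10 (50.3%) with a median of 0.03. Averaged over the other agent it was 10 of 10 for CD40 (48.4%) and 5 of 10 for CSF1Ri (51.5%), and for the interaction it was 4 of 10 (49.1%). The 3 comparisons with control share the same 3 control libraries, and several members varied together between libraries (below), so these are not 10 separate observations. Such a direction was not particular to the members. Of the 9 T cell markers, 9, 9 and 8 were positive for CSF1Ri, CD40 and the combination over control, with medians of 0.36, 0.28 and 0.31. CD40 library 2 was the library in which 6 of the 10 members were highest, and the share of all genes highest there was not counted. Leaving it out lowered the CD40 fold change of Psmb8 from 0.36 to 0.04, of B2m from 0.27 to 0.08 and of H2-D1 from 0.30 to 0.12. That of H2-K1 went from 0.36 to 0.22 and that of Psmb9 from 0.52 to 0.28. Those of Tap2 and Tapbp rose, from 0.43 to 0.53 and from 0.17 to 0.34. Leaving out CD40 library 3 instead gave higher values than the full fit for Psmb8 (0.62), B2m (0.52), H2-D1 (0.46), H2-K1 (0.49) and Psmb9 (0.77).

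**Figure D3:**
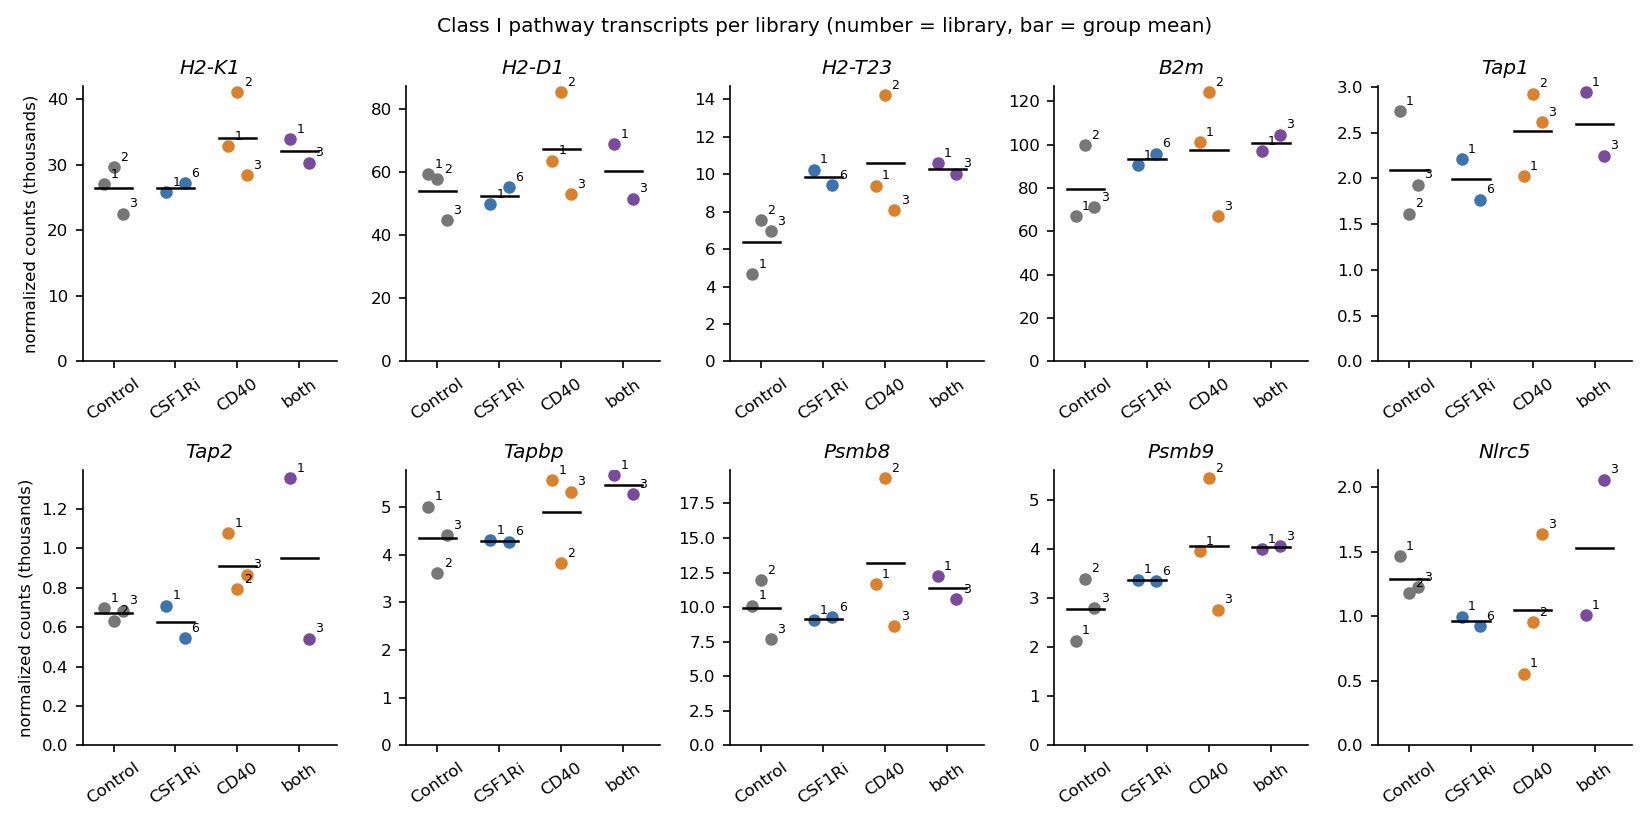
Normalized counts, divided by 1000, of each member in each library by group ("both" is the combination), with the library number beside each point, the group mean as a bar and the vertical axis from 0. H2-T23 is higher in all 7 treated libraries than in any control, and CD40 library 2 is the highest library for 6 of the 10 members. The share of all genes with either feature was not counted.

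Among the heavy chains, H2-T23, which encodes the non-classical molecule Qa-1 that presents a leader peptide of other class I chains to CD94/NKG2 receptors of natural killer and T cells, differed most from control. It read 4664, 7552 and 6959 normalized counts in the controls, 10240 and 9395 in the CSF1Ri libraries, 9387, 14219 and 8089 in the CD40 libraries, and 10565 and 10026 in the combination. All 7 treated libraries lay above the highest control, the lowest being CD40 3. The share of all genes with such a separation was not counted, and Arrdc1, which is not a member, also had it (below). The means were 6392 ± 1525 (SD, n = 3) in controls, 9818 ± 598 (n = 2) after CSF1Ri, 10565 ± 3230 (n = 3) with CD40 and 10296 ± 381 (n = 2) with both.

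The log2 fold change of H2-T23 over control was 0.65 (95% interval 0.06 to 1.24, limma adjusted p = 1) for CSF1Ri. It was 0.71 (0.19 to 1.24, adjusted p = 0.722) for CD40 and 0.72 (0.13 to 1.31, adjusted p = 0.887) for the combination. The intervals are for the gene alone and are not adjusted for the number of genes tested. The fold change with both agents was about as large as with either, and the interaction, the departure from adding the 2 effects on the log2 scale, was -0.64 (-1.48 to 0.19, limma adjusted p = 0.991). Leaving out each library in turn moved the 3 fold changes to between 0.44 (CSF1Ri, without control 1, the lowest library for this gene) and 0.88 (CD40, without CD40 3), and without the 3 libraries with Y-linked transcripts the CD40 value was 0.37.

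H2-K1, a classical heavy chain that presents peptides to CD8+ T cells, read 27085, 29586 and 22531 in the controls and 25880 and 27174 after CSF1Ri. It read 32881, 41080 and 28464 after CD40 agonist, and 33941 and 30338 in the combination. The CSF1Ri libraries lay inside the control range and both combination libraries above it, while CD40 3 lay below control 2. In limma the log2 fold change was 0.02 (95% interval -0.43 to 0.47) for CSF1Ri, 0.36 (-0.04 to 0.77, limma adjusted p = 0.788) for CD40 and 0.29 (-0.16 to 0.74, adjusted p = 0.925) for the combination. Averaged over CSF1Ri levels, the CD40 fold change was 0.32, with an unadjusted p of 0.0493 and an adjusted p of 1 in limma.

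H2-D1, the other classical heavy chain, read 59290, 57727 and 44794 in the controls and 49834 and 55265 after CSF1Ri. It read 63699, 85300 and 53036 after CD40 agonist, and 68858 and 51608 in the combination. No group was separate from the controls. Its log2 fold change was -0.03 (95% interval -0.55 to 0.50) for CSF1Ri, 0.30 (-0.17 to 0.77) for CD40 and 0.16 (-0.37 to 0.68) for the combination, which turned to -0.05 without combination library 1.

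B2m, the light chain shared by all these heavy chains, read 67174, 99937 and 71127 in the controls and 90588 and 95946 after CSF1Ri. It read 101287, 124245 and 66994 after CD40 agonist, and 97093 and 104680 in the combination. Control 2 was as high as most treated libraries, and CD40 3 was the lowest of all 10. Over control its log2 fold change was 0.25 (95% interval -0.33 to 0.84), 0.27 (-0.25 to 0.80) and 0.37 (-0.22 to 0.95) for CSF1Ri, CD40 and the combination. The CSF1Ri value was 0.15 without control 1 and 0.43 without control 2.

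Of the transport and loading genes, Tap1 read 2738, 1614 and 1932 in the controls and 2210 and 1767 after CSF1Ri. It read 2021, 2927 and 2611 after CD40 agonist, and 2943 and 2250 in the combination. The controls alone spanned most of this range. The limma log2 fold change over control was -0.05 (95% interval -0.65 to 0.55), 0.28 (-0.25 to 0.82) and 0.33 (-0.27 to 0.94) for CSF1Ri, CD40 and the combination, and the CD40 value rested on libraries 2 and 3, being -0.02 without both. Without control 2 the CD40 value was 0.11, and without combination 1 the combination value was 0.14.

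Tap2, the partner of Tap1 in the transporter, read 696, 633 and 683 in the controls, a narrow range. It read 708 and 544 after CSF1Ri, 1077, 792 and 866 after CD40 agonist, and 1355 and 541 in the combination. All 3 CD40 libraries lay above the controls, while the 2 combination libraries were the highest and the lowest of all 10. In limma the log2 fold change was -0.11 (95% interval -0.90 to 0.68) for CSF1Ri, 0.43 (-0.28 to 1.14, limma adjusted p = 0.856) for CD40 and 0.35 (-0.44 to 1.15) for the combination. Without combination library 1 the last was -0.31, and without library 3 it was 1.01.

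Tapbp, which encodes tapasin, read 5009, 3613 and 4414 in the controls and 4310 and 4271 after CSF1Ri. It read 5556, 3828 and 5322 after CD40 agonist, and 5672 and 5267 in the combination. Tapbp had the narrowest range of the members, 1.57-fold from lowest to highest library. Both combination libraries lay above the controls. Its log2 fold change was -0.01 (95% interval -0.49 to 0.48), 0.17 (-0.27 to 0.60) and 0.34 (-0.14 to 0.83) for CSF1Ri, CD40 and the combination. The CD40 value was 0.04 without control 2 and 0.34 without CD40 2.

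Of the immunoproteasome subunits, Psmb8 (LMP7) read 10119, 11963 and 7688 in the controls and 9058 and 9259 after CSF1Ri. It read 11654, 19334 and 8655 after CD40 agonist, and 12228 and 10568 in the combination. CD40 2 stood far above every other library, and the remaining treated libraries lay within or just above the control range. Over control its log2 fold change was -0.09 (95% interval -0.76 to 0.57), 0.36 (-0.24 to 0.95) and 0.22 (-0.44 to 0.88) for CSF1Ri, CD40 and the combination. The combination value was 0.05 without control 3 and 0.37 without control 2.

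Psmb9 (LMP2) read 2134, 3397 and 2798 in the controls and 3374 and 3347 after CSF1Ri. It read 3955, 5439 and 2764 after CD40 agonist, and 3994 and 4063 in the combination. The combination libraries were close to each other and above all controls, and CD40 3 was again within the control range. The limma log2 fold change was 0.30 (95% interval -0.32 to 0.93) for CSF1Ri, 0.52 (-0.04 to 1.08, limma adjusted p = 0.786) for CD40 and 0.56 (-0.06 to 1.19, adjusted p = 0.925) for the combination. The CSF1Ri value was 0.12 without control 1 and 0.46 without control 2.

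Nlrc5, the transactivator of class I genes, had an order of libraries unlike that of the chains. It read 1464, 1177 and 1226 in the controls and 997 and 923 after CSF1Ri. It read 557, 955 and 1633 after CD40 agonist, and 1007 and 2057 in the combination. Of the 7 treated libraries 5 lay below every control, and the other 2 (CD40 3 and combination 3) lay above every control. In limma the log2 fold change was -0.42 (95% interval -1.33 to 0.50) for CSF1Ri, -0.43 (-1.25 to 0.39, limma adjusted p = 0.887) for CD40 and 0.17 (-0.75 to 1.08, adjusted p = 0.992) for the combination. The interaction was 1.01 (-0.28 to 2.31, adjusted p = 0.991). It was 0.50 without combination 3, 1.53 without combination 1 and 1.79 without CD40 2 and 3. The CD40 value was -0.04 without CD40 1, -0.81 without CD40 3 and -1.20 without CD40 2 and 3, and the combination value was -0.35 without combination 3. Nlrc5 had the widest range of the members, 3.69-fold, and a residual SD of 0.55 on the log2 scale, against 0.20 to 0.42 for the other 9 and a median of 0.33 over 4003 genes averaging 500 or more normalized counts.

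**Figure D4:**
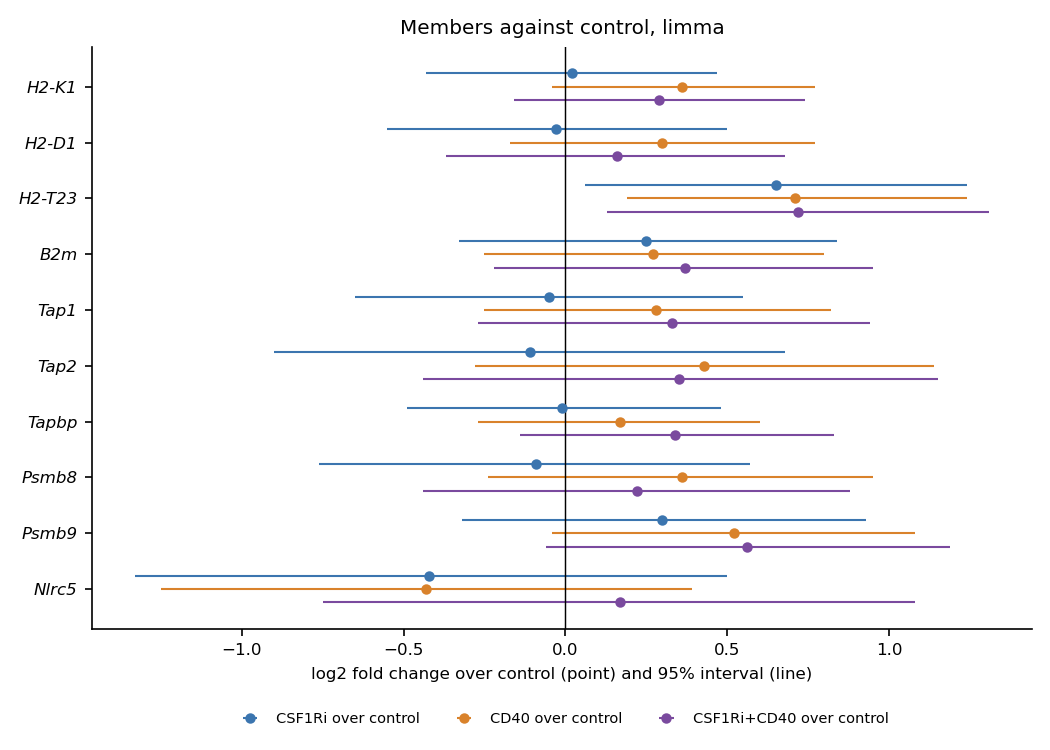
Log2 fold change over control (points) with 95% limma intervals (lines) for each member under CSF1Ri, CD40 and the combination. Only the 3 intervals of H2-T23 lie wholly above 0, and none of the 30 differences passed after adjustment over all genes.

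Complete separation of groups was counted as a description. Separation from control was seen for 1 member higher (H2-T23, 11.6% of genes) and 1 lower (Nlrc5, 10.3%) after CSF1Ri, and for 2 members higher (H2-T23 and Tap2, 4.19%) and 0 lower (4.91%) with CD40. With the combination it was 4 higher (H2-K1, H2-T23, Tapbp and Psmb9, 10.6%) and 0 lower (9.60%). Against CSF1Ri alone, both combination libraries were higher for 7 members (H2-K1, B2m, Tap1, Tapbp, Psmb8, Psmb9 and Nlrc5), a separation found in 16.5% of genes, and lower for 0 (16.8%). Between the combination and CD40 alone 0 members separated in either direction (8.19% higher and 6.84% lower). The 5 libraries with CD40 agonist separated from the 5 without for 0 members (0.350% of genes higher, 0.433% lower), and the 4 with CSF1Ri from the 6 without for 0 (0.592% higher, 0.318% lower). The log2 fold changes of the combination over CSF1Ri were between 0.07 (H2-T23) and 0.58 (Nlrc5), every 95% interval included 0, and those of H2-D1 and Tap2 turned to -0.02 and -0.20 without combination library 1.

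Some members varied together from library to library and others did not. Over the 10 libraries 45 pairs were correlated on log2 values, and 32 had a positive Pearson's r. Of these, 7 passed 0.05 by Pearson's r (permutation test, 100000 draws, adjusted over the 45) and 3 passed by both Pearson's r and Spearman's rho. Pairs of other genes were not put through this test, so whether 7 of 45 is more than for other genes is not known. Non-members picked out of 8833 genes, such as Arrdc1 and Mrpl17, had r of 0.953 and 0.922 with the mean of the members (below). H2-K1 and Psmb8 had r = 0.94 (permutation p = 0.00013, adjusted 0.00281) and rho = 0.88 (permutation p = 0.00144, adjusted 0.0324). Without the 2 libraries farthest from the median, CD40 2 and control 3, r was 0.80, and within groups it was 0.98. H2-D1 and Psmb8 had r = 0.93 (permutation p = 0.00022, adjusted 0.00281) and rho = 0.85 (permutation p = 0.00314, adjusted 0.0471), with r = 0.76 without those 2 libraries and 0.92 within groups.

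B2m and Psmb9 had r = 0.93 (permutation p = 6e-05, adjusted 0.0027) and rho = 0.94 (permutation p = 0.00017, adjusted 0.00765), with r = 0.92 without CD40 3 and control 1 and 0.95 within groups. The other 4 pairs that passed by Pearson's r alone were H2-K1 with H2-D1 (r = 0.93, adjusted permutation p = 0.00281), H2-T23 with Psmb9 (r = 0.93, adjusted 0.00297), H2-T23 with B2m (r = 0.81, adjusted 0.0246) and B2m with Psmb8 (r = 0.76, adjusted 0.0415). Their rho values were 0.79, 0.78, 0.60 and 0.78, with adjusted permutation p of 0.0694, 0.0694, 0.297 and 0.0694. The heavy and light chains and both immunoproteasome subunits made up these 7 pairs.

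Tap1 and Psmb9, which share the promoter region printed above, had r = 0.13 (permutation p = 0.731, adjusted 0.829) and rho = 0.24 (permutation p = 0.512, adjusted 0.678), with r = 0.06 without control 2 and combination 1 and -0.30 within groups. The ratio of Psmb9 to Tap1 ranged from 0.779 to 2.1 over the libraries. Nlrc5 had a negative r with 7 of the other 9 members, from -0.47 to 0.19, and its lowest adjusted permutation p over the 45 pairs was 0.379 by Pearson's r. Nlrc5 and Malat1, the nuclear transcript that was highest in CD40 3, had r = 0.56 (permutation p = 0.0893, 0.446 adjusted over 10 relations of Malat1 with members) and rho = 0.61 (permutation p = 0.0681, adjusted 0.364). Without CD40 3 and control 2 that r was 0.66, and within groups it was 0.76. For B2m and Malat1 r was -0.61 (permutation p = 0.0635, adjusted 0.446) and rho -0.41 (permutation p = 0.247, adjusted 0.55), with r = -0.46 without those 2 libraries and -0.75 within groups. The part of nuclear RNA content in these values was not tested.

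**Figure D5:**
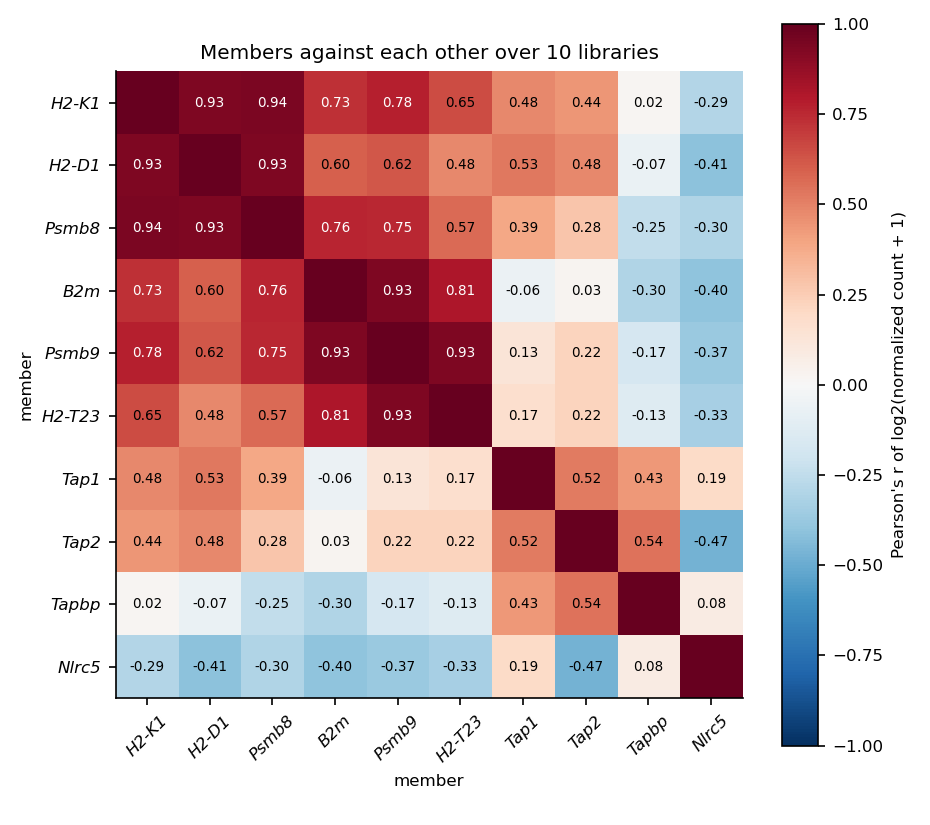
Pearson's r between each pair of members over the 10 libraries on log2(normalized count + 1), from -1 (blue) to 1 (red). The block of H2-K1, H2-D1, Psmb8, B2m, Psmb9 and H2-T23 is positive throughout, and Nlrc5 is negative with 7 of 9 members.

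The immunoproteasome subunits replace the constitutive catalytic subunits, so their ratios were read within each library. Psmb9 to Psmb6, its constitutive counterpart, was 0.507, 0.526 and 0.676 in the controls and 0.718 and 0.667 after CSF1Ri. It was 0.755, 0.672 and 0.689 after CD40 agonist, and 0.850 and 1.06 in the combination, the highest values. Its log2 was higher by 0.37 in the 5 libraries with CD40 agonist than in the 5 without (-0.33 against -0.71, exact two-sided permutation p = 0.0476, and 0.456 adjusted over 16 ratio tests). It was higher by a similar 0.36 in the 4 libraries with CSF1Ri than in the 6 without (-0.30 against -0.66, exact permutation p = 0.0857, adjusted 0.456). Psmb8 to Psmb5 ranged from 10.3 to 18.2 with no such order (difference 0.01, exact permutation p = 0.984). The ratio H2-T23 to H2-D1 was higher by 0.41 on the log2 scale in the 4 libraries with CSF1Ri than in the 6 without (exact permutation p = 0.0571, adjusted 0.456), and no ratio passed after adjustment.

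Other genes of the pathway, in lists drawn up by function, gave 0 genes past the adjusted threshold in any of the 8 comparisons. Of 26 other class I and class I-like chains 19 were tested, and 12, 13 and 12 had a positive log2 fold change for CSF1Ri, CD40 and the combination over control. H2-Q6, which encodes a non-classical chain near-identical to that of H2-Q7, read 2299, 2497 and 2274 in the controls, 2167 and 2294 after CSF1Ri, 2403, 2351 and 2319 after CD40 agonist, and 3223 and 3604 in the combination. It was higher in both combination libraries than in any other library, and its log2 fold change over control was 0.53 (limma adjusted p = 0.849). For CD40 averaged over CSF1Ri levels, H2-Q6 and H2-Q7 had 0.31 and 0.36 (unadjusted p = 0.0397 and 0.0247). H60b, a ligand of NKG2D, had 1.72 for the combination (unadjusted p = 0.121), from a low level of 16 to 195 normalized counts. Of 17 other loading and peptide trimming genes 11, 9 and 12 were higher, among them Tapbpl, the tapasin-related peptide editor (0.86 for the combination over control, limma unadjusted p = 0.0617, and 0.42 for CD40 averaged, unadjusted p = 0.184). The chaperones of newly made heavy chains were Calr, with 0.34 for the combination (unadjusted p = 0.132), and Canx, with -0.26 for CD40 averaged (unadjusted p = 0.121). Of 19 other proteasome genes 14, 18 and 15 were higher, with medians of 0.10, 0.19 and 0.14, against 0.36 and 0.52 for Psmb8 and Psmb9 with CD40. For CD40 averaged, Psme2, a subunit of the PA28 activator, had 0.24 and the core subunit gene Psma5 had 0.19 (limma unadjusted p = 0.186 and 0.231). For the combination over control, the core subunit genes Psmb7 and Psma1 had 0.31 and 0.29 (limma unadjusted p = 0.249 and 0.307).

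Interferon gamma is the classical inducer of the class I pathway, and genes of its response outside the pathway had a higher median log2 fold change than the members with the combination (0.71 against 0.34, a difference that was not tested). Of 21 tested of 22, 14, 15 and 19 were higher for CSF1Ri, CD40 and the combination over control, with medians of 0.16, 0.13 and 0.71. The list holds genes at very low levels, whose log2 fold changes are unstable. Cxcl9 and Ubd read 0 in every control and at most 14 and 11 in the combination. Gbp5 read 1 in control 2 and Ciita 2 in control 1. The median was not computed without such genes, so the gap to the members may rest on them. Iigp1, an interferon-inducible GTPase, read 774, 1183 and 985 in the controls, 1278 and 1549 after CSF1Ri, 1964, 1076 and 804 after CD40 agonist, and 2700 and 2562 in the combination. Both combination libraries were above every other library, and the log2 fold change over control was 1.44 (limma unadjusted p = 0.00144, adjusted 0.633), with 0.60 for CD40 averaged over CSF1Ri levels (unadjusted p = 0.0309). Igtp, another such GTPase, had 0.71 in the same comparison (limma adjusted p = 0.783) and 0.54 for CD40 averaged (unadjusted p = 0.00574, adjusted 1).

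Ifng itself, chosen after its values were seen, read 876, 1063 and 563 in the controls, 1272 and 1157 after CSF1Ri, 2659, 1949 and 203 after CD40 agonist, and 2145 and 2267 in the combination. CD40 3 was the lowest of all libraries for Ifng, while the other 6 treated libraries exceeded every control for it. Among the members only B2m was lowest of all libraries in CD40 3. Of the 7 treated libraries, CD40 3 was also the lowest for H2-T23 (8089), Psmb8 (8655) and Psmb9 (2764). H2-T23, Tap2 (866), Tapbp (5322) and Nlrc5 (1633) in that library lay above every control. A relation of Ifng to the members was not tested. Among 24 regulators of class I transcription, 12, 15 and 12 were higher. Irf1, the interferon regulatory factor that binds the interferon-stimulated element, read 2207, 2476 and 1934 in the controls, 2740 and 2790 after CSF1Ri, 2193, 1989 and 2039 after CD40 agonist, and 3187 and 4252 in the combination. The CSF1Ri and combination libraries lay above the controls and the CD40 libraries within their range, and the log2 fold change of the combination was 0.75 (limma unadjusted p = 0.00442, adjusted 0.743). Irf8, a related factor, had 1.29 in that comparison (unadjusted p = 0.0254, adjusted 0.895) and 0.84 for CD40 averaged (unadjusted p = 0.0362). Atf1, a factor that binds the cyclic AMP response element, had -0.65 for CD40 averaged (unadjusted p = 0.0364). Of 12 genes of MHC class II presentation, 10, 11 and 9 were higher, with medians of 0.27, 0.48 and 0.37. H2-DMa, part of the class II peptide editor, had 0.49 for CD40 averaged (limma unadjusted p = 0.0251) and 0.65 for the combination (unadjusted p = 0.0331, adjusted 0.914). H2-Ob had -1.39 for CD40 averaged (unadjusted p = 0.0525) and the protease gene Ctss 0.46 for the combination (unadjusted p = 0.0782).

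Markers of the cell types in the libraries also varied between libraries and groups. The summed T cell markers were 99798 to 129134 in the controls, 137457 to 149906 after CSF1Ri, 103718 to 170761 with CD40 and 137525 to 145257 in the combination, with none of the 9 markers at 0. CD40 2 had the highest T cell sum and the highest level of 6 members, and also the largest normalized total of the 10 libraries (14024851). CD40 3 had a T cell sum of 103718, within the control range, and an H2-T23 level of 8089. The 10 macrophage and monocyte markers summed to 2470 to 3194, 3331 to 4125, 2205 to 5832 and 4060 to 4830 in the same order. Ly6c2, which T cells also express, made up most of the sum. Over control, 4, 5 and 3 of the 10 had a positive log2 fold change for CSF1Ri, CD40 and the combination. Adgre1, Mrc1 and C1qc were at 0 in both combination libraries and also in CD40 3. Cd68 averaged 148 in the controls, 226 after CSF1Ri, 262 with CD40 and 342 in the combination. The 7 dendritic cell markers summed to 2717 to 4514, 3100 to 3622, 2576 to 3978 and 2386 to 2555. Over control, 2, 4 and 2 of the 7 had a positive log2 fold change for CSF1Ri, CD40 and the combination. Clec9a was at 0 in all CD40 and combination libraries, and at most 12 in the others. Xcr1 averaged 29.3 in the controls, 89 after CSF1Ri, 104 with CD40 and 120 in the combination. The 7 B and plasma cell markers summed to 5292 to 7611, 4524 to 6659, 4979 to 6423 and 4691 to 5842. Jchain was at 0 in both combination libraries and in CD40 2 and 3, and Pax5 was at most 11 in any library.

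The 6 mast cell markers summed to 531 to 1725 in the controls, 720 to 1853 after CSF1Ri, 2428 to 18054 with CD40 and 1801 to 9825 in the combination. The 5 erythroid markers summed to 2940 to 15906, 1318 to 2729, 876 to 1195 and 13 to 501. Over all libraries the sums of the remaining lists were 640 to 1331 for NK and innate lymphoid cells, 275 to 1177 for melanocytes, 317 to 2200 for keratinocytes, 34 to 4858 for fibroblasts, 497 to 1050 for endothelial cells and 0 to 254 for neutrophils. The part of cell composition in the levels of the members was not tested.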

How the data were processed

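mRNA of pooled tumours was sequenced as non-stranded paired reads of 75 bases from 50 ng of RNA, per the labels' protocols. Reads were aligned with STAR to GRCm38 and counted with HTSeq, and DESeq2 was used in R, per the submitters' processing notes (versions not given in the sources used here). The deposited table holds a score, counts divided by size factors and rounded to whole numbers by the authors, so no count model was fitted here. All 10 libraries entered 1 limma-trend fit (R 4.3.3, limma 3.58.1) of log2(value + 1) on 4 groups, with 6 residual degrees of freedom. Genes with at least 10 in at least 2 libraries were tested (15716 of 48825), with adjustment over all of them and a threshold of 0.05. Alternatives were other pseudocounts, filters, scalings and weights, a fit of only the groups compared, the replicate number as a block, and leaving out libraries. Library numbers were used as names and not to pair the samples in the main fit. After centring on group means, same-numbered libraries outside the CSF1Ri group correlated between -0.27 and 0.18. With 2 or 3 libraries a group, centring itself shapes these values, so they cannot decide whether samples were paired. From each other list the 2 genes with the lowest p for CD40 averaged over CSF1Ri levels and the 2 for the combination over control are named. Likeness was read over genes with a mean of at least 100. Members and lists were chosen with earlier results of these data known. The precision is limited by 2 or 3 libraries a group. A further allele shared by all mice is not reported here.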

Additional observations from a re-analysis of the deposited data

How the results depend on the processing

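In all alternatives 0 members passed the threshold in any of the 8 comparisons. Of 1680 recomputed fold changes of members, 96 changed sign: 18 for CSF1Ri over control, 1 for CD40 over control, 3 for the combination over control, 2 for it over CSF1Ri, 21 for it over CD40, 26 for the interaction, 20 for CSF1Ri averaged and 5 for CD40 averaged. The interaction of H2-T23 was between -0.81 and -0.30 and that of Nlrc5 between 0.50 and 1.79, with no change of sign. For CSF1Ri over control, H2-K1 was -0.03 with equal totals and -0.04 with quantile normalization, and H2-D1 was 0.01 with the latter. Leaving out 1 library at a time gave -0.09 to 0.10 for H2-K1, -0.16 to 0.05 for H2-D1, -0.22 to 0.16 for Tap1, -0.30 to 0.08 for Tap2, -0.13 to 0.10 for Tapbp and -0.26 to 0.05 for Psmb8. Leaving out the 3 libraries with Y-linked transcripts, an alternative chosen after seeing the data, gave 0.05 for H2-D1, 0.16 for Tap1 and 0.10 for Tapbp. For CD40 over control, Tap1 was -0.02 without CD40 2 and 3, also chosen after seeing the data. For the combination over control, leaving out 1 library gave -0.05 to 0.36 for H2-D1, -0.31 to 1.01 for Tap2 and -0.35 to 0.68 for Nlrc5. For CD40 averaged over CSF1Ri levels, Nlrc5 was -0.09 with array weights, -0.31 without CD40 2 and 3, -0.26 without the Y-linked libraries, and -0.18 to 0.34 leaving out 1 library. The cause was not tested.

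With the replicate number as a block, 0 members passed for CD40 or the combination over control and for the combination over CD40, and the count over all genes for CD40 over control went from 1 to 0. Over all genes the counts stayed low: the combination over control gave 0, 36 without combination library 1, 7 without combination library 3 and 13 without the mean-variance trend. CSF1Ri over control gave 1, between 0 and 6 in the alternatives, and CD40 over control gave 1, between 0 and 3. The scalings moved the median of all genes to at most -0.069.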

Other observations

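Among 8833 genes with a mean of at least 100 normalized counts, the genes whose log2 level over the 10 libraries was most like the mean of the 10 members were Arrdc1 (r = 0.953), Gm26596 (0.937), Cyba (0.931), Gtf2e2 (0.924) and Mrpl17 (0.922). Arrdc1 read 1054 to 1321 in the controls, 1369 and 1420 after CSF1Ri, 1754, 2194 and 1357 after CD40 agonist, and 1822 and 1621 in the combination, so that every treated library lay above the controls. Cyba, a subunit of the phagocyte NADPH oxidase, read 6120 to 7183 in the controls and 11105 in CD40 2. All 5 genes were highest in CD40 2, the library in which 6 members were highest.

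The genes most like Nlrc5 were 1700113A16Rik (r = 0.945) and Slmap (0.943). Slmap read 325, 342 and 329 in the controls, 198 and 217 after CSF1Ri, 88, 154 and 425 after CD40 agonist, and 186 and 448 in the combination. As for Nlrc5, 5 of the 7 treated libraries lay below every control and CD40 3 and combination 3 above. These likenesses were chosen out of all genes and carry no test.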
